A study of Oryza sativa with 4 samples.

Results

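Of 46114 peaks of open chromatin listed for rice leaf blades, 709 were annotated to 519 genes that resemble the coding parts of transposable elements. These peaks were chosen by their annotation, not by their reads. A peak was taken if its gene carried, in any case, the symbol RE1, RE2, pol, POLX or GIP or one starting with TY3B, or if its description named a transposon, a transposase or a retrovirus-related Pol protein. The symbol chose 580 peaks and the description 148, with 19 chosen by both. The remaining 45405 peaks are called the other peaks.

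Open chromatin was mapped with ATAC-seq, a method where the enzyme Tn5 cuts and tags DNA that is not covered by nucleosomes. Leaf blades of Oryza sativa seedlings were used, from the Oshmgb1 mutant and from wild-type (WT) plants. Both genotypes had been kept for 28 days under a regime that the labels call HP, and each genotype had 2 libraries. OsHMGB1 belongs to the high mobility group box proteins, a class of abundant chromatin proteins that bend DNA. The labels do not say what kind of mutation the line carries or whether it is 1 line or several. They also do not say whether the 2 libraries of a genotype came from separate plants. The p-values thus measure only how these libraries vary, a spread that is estimated largely across peaks and may be technical. The comparison of Oshmgb1 with WT asks whether loss or change of this protein goes with more or less open chromatin at such genes.

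Transposable elements are DNA segments that can make new copies of themselves or move within a genome. Retrotransposons move through an RNA copy, which a reverse transcriptase turns back into DNA and an integrase inserts. Those with long terminal repeats fall into a copia (Ty1) and a gypsy (Ty3) group, which differ in the order of the enzymes within the Pol polyprotein. DNA transposons are cut out and reinserted by a transposase, and the Mutator, CACTA and hAT superfamilies are among those of plants. In plants most copies are kept in closed chromatin by DNA methylation, histone marks and small RNAs.

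The symbols in the deposited table are borrowed from other species. RE1 (122 peaks at 82 genes) and RE2 (102 peaks at 80 genes) are names of Arabidopsis copia elements. GIP (90 peaks at 72 genes) is the name of the Drosophila copia polyprotein, and TY3B (83 peaks at 58 genes) that of the budding yeast Ty3 polyprotein. The symbol pol in any case (183 peaks at 133 genes) is unspecific and covers several kinds of element. The other 129 peaks, at 94 genes, were chosen by the description alone. Grouped by symbol and description, 330 peaks were of copia type and 280 of gypsy or pol type. A further 15 were at other retrotransposons, 20 at Mutator, 11 at CACTA and 5 at hAT genes, and 48 at transposons whose kind the description did not give. The rule also took in 10 peaks at 7 genes whose descriptions name another kind of protein, such as a potassium transporter or the phosphatase PP2C 32, which carries the symbol POL.

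The transposon-like peaks lay less often in untranslated regions than the other peaks. Of the 709 peaks, 8 (1.13%) were in 5′ UTRs and 13 (1.83%) in 3′ UTRs, against 7.07% and 7.73% of the other peaks. Exons held 197 (27.8%, against 20.5% of the other peaks), introns 107 (15.1%, against 18.1%), promoters 274 (38.6%, against 35.03%) and the stretch within 3 kb downstream of genes 110 (15.5%, against 11.6%). These classes are the authors' annotation, and no test was made of the shares, since peaks are not independent of each other.

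**Figure D1:**
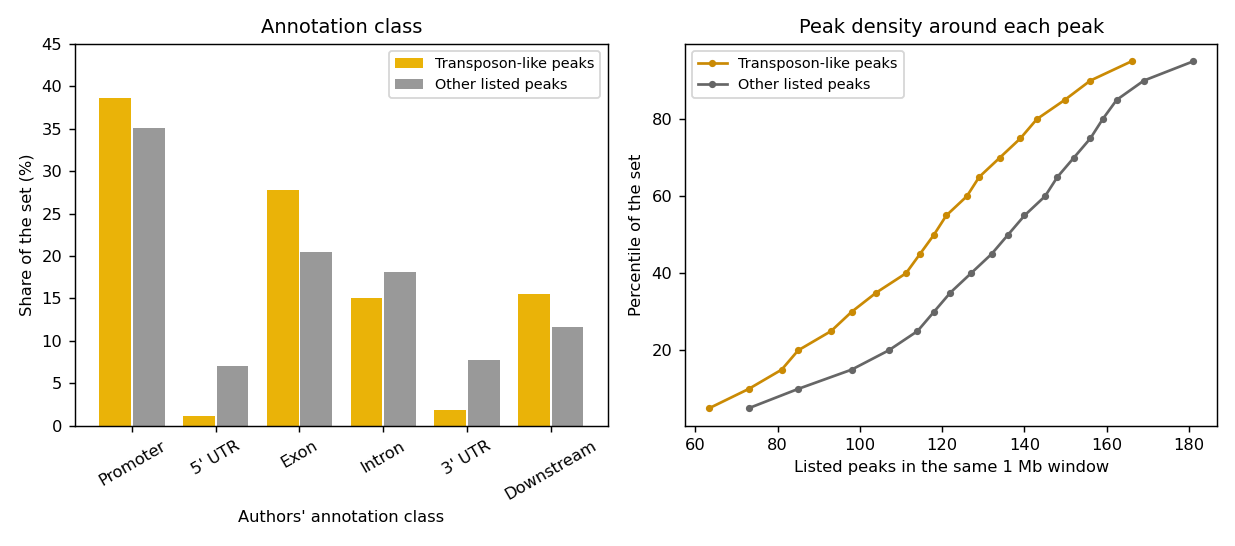
Left, share of peaks (%) in each class of the authors' annotation for the 709 transposon-like peaks (yellow) and the 45405 other peaks (grey). Right, listed peaks in the same 1 Mb window (x axis) at each percentile of both sets (y axis), where the transposon-like peaks sit to the left, with a median of 118 against 136.

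They also lay in regions with fewer peaks and were somewhat less open. The 1 Mb window around a transposon-like peak held a median of 118 listed peaks, against 136 for the other peaks. Per length, their median level was 20.8 CPM per kb, against 25.6 for the other peaks. CPM is a peak's count per 1000000 reads in listed peaks, not per 1000000 reads of the whole library, after scaling between libraries. Median lengths were alike, at 569 bp for the transposon-like peaks and 560 bp for the other peaks. In each library the median transposon-like peak had 127 and 108 reads in Oshmgb1 replicates 1 and 2, and 84 and 99 reads in WT replicates 1 and 2. The lowest count of any such peak in any library was 20 reads, so none was at 0. Every chromosome carried such peaks, with the largest number on chromosome 4 (87 peaks, 2.15% of its listed peaks), the highest share on chromosome 9 (63 peaks, 2.31%) and the lowest share on chromosome 1 (52 peaks, 0.847%).

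Across the libraries the transposon-like peaks together took nearly the same share of all reads in peaks. The share was 1.31% and 1.34% in Oshmgb1 replicates 1 and 2, and 1.27% and 1.29% in WT replicates 1 and 2. Both Oshmgb1 libraries were thus above both WT libraries, by a mean of 0.0430 percentage points. The genotype means were 1.32% ± 0.0209 in Oshmgb1 and 1.28% ± 0.0126 in WT (SD, n = 2 each), a ratio of 1.03. With 2 libraries against 2, an exact two-sided permutation test cannot give a p below 0.333. Without the 11 peaks called below, the means were 1.31% in Oshmgb1 and 1.27% in WT.

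Peak by peak, 7 of the 709 were more open in Oshmgb1 and 4 were less open. The test was edgeR's quasi-likelihood test on the read counts over all 46114 peaks, and a peak was called at a Benjamini-Hochberg adjusted p under 0.05. The 11 calls were 1.55% of the transposon-like peaks. Over all peaks the background was 0.403% called (186 peaks), with 0.321% higher and 0.0824% lower in Oshmgb1, and among the other peaks 0.385% were called. Among the transposon-like peaks, 119 (16.8%) had an unadjusted p under 0.05, 85 higher and 34 lower, against a background of 12.2% over all peaks, with 6.94% higher and 5.22% lower. The libraries of the genotypes did not overlap at 337 transposon-like peaks (47.5%), where Oshmgb1 was above WT at 206 and below it at 131. Over all peaks this background was 43.2%, with 21.6% in each direction.

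**Figure D2:**
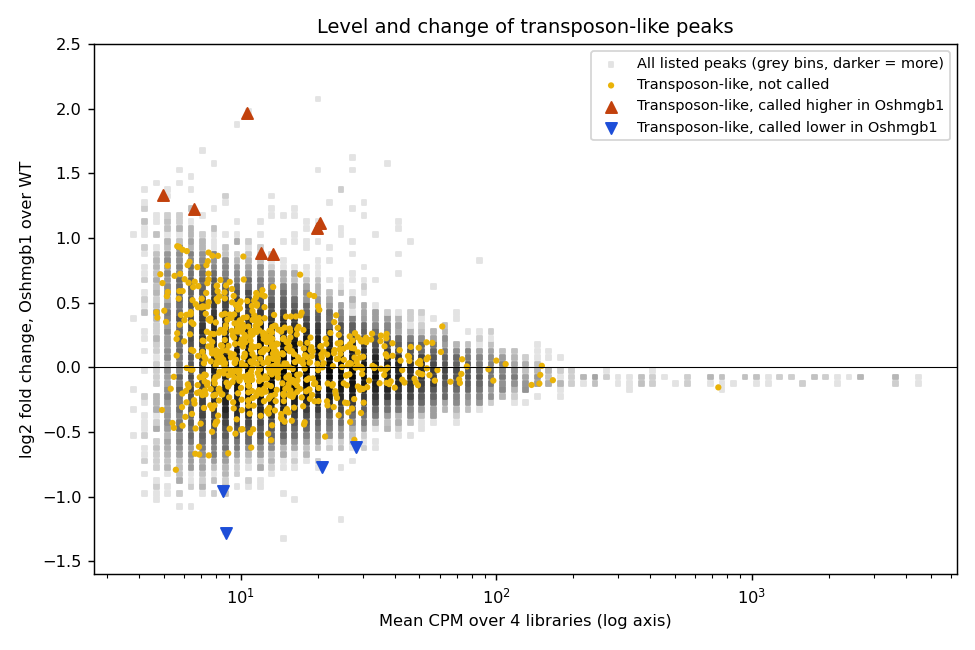
Mean CPM over the 4 libraries (x axis, log scale) and log2 fold change of Oshmgb1 over WT (y axis) for all listed peaks (grey bins) and the 709 transposon-like peaks (yellow points; triangles up for the 7 called higher, triangles down for the 4 called lower). The called peaks lie below 40 CPM, and the transposon-like peak with the highest CPM lies near 0 on the y axis.

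The bulk of the transposon-like peaks differed little between genotypes. Their median log2 fold change, Oshmgb1 over WT, was 0.05, with the middle 50% of peaks between -0.12 and 0.26. Over all peaks the median was -0.01 and the middle 50% lay between -0.16 and 0.17. The log2 fold change was positive at 57.7% of the transposon-like peaks and at 48.9% of all peaks. For 642 of the 709 peaks the 95% interval excluded a 2-fold difference in either direction (90.6%, against 95.2% of all peaks). These intervals rest on a spread shared largely across peaks, not on each peak's own replicates alone. A difference of at least 2-fold was fitted at 6 of them (0.846%), against 107 of all peaks (0.232%).

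The largest difference was at LOC_Os05g24610, a gene with the symbol pol. A peak in its intron 4 of 5 (chromosome 5, 14204110 to 14204640) measured 14.6 and 19.0 CPM in Oshmgb1 and 5.33 and 3.30 CPM in WT. Both Oshmgb1 libraries were far above both WT libraries, with a log2 fold change of 1.97 ± 0.25 (SE), a 3.91-fold difference (edgeR adjusted p 8.20e-09). A second peak of the gene, in its promoter (chromosome 5, 14197385 to 14198013), measured 11.9 and 10.1 CPM in Oshmgb1 and 12.3 and 12.7 CPM in WT. It had a log2 fold change of -0.18 ± 0.21 and was not called. The difference was thus called at the intron peak and not at the promoter peak of the gene; the difference between both peaks was not tested.

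At LOC_Os12g08040, of the gypsy-type symbol TY3B-I, a pair of adjacent peaks was called. The exon peak (chromosome 12, 4089332 to 4090267) measured 28.1 and 27.8 CPM in Oshmgb1 and 13.6 and 12.2 CPM in WT. Its log2 fold change was 1.11 ± 0.18 (edgeR adjusted p 1.96e-05). The downstream peak (chromosome 12, 4088075 to 4089044), 287 bp away, measured 27.0 and 27.1 CPM in Oshmgb1 and 13.9 and 11.9 CPM in WT, with a log2 fold change of 1.07 ± 0.18 (edgeR adjusted p 6.07e-05). At both peaks the Oshmgb1 libraries lay close together and well above both WT libraries. Lying side by side, these peaks may not be separate events. They and the intron peak of LOC_Os05g24610 were the 3 peaks that edgeR and DESeq2 both called, that had an FDR under 0.05 in the authors' deposited table and that kept the call when any library was left out. The other 8 called peaks described here were not called by DESeq2.

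The third gypsy-type or pol-type gene was LOC_Os12g24510, with the symbol Pol. Its exon peak (chromosome 12, 13993884 to 13994610) measured 16.8 and 14.1 CPM in Oshmgb1 and 9.68 and 7.21 CPM in WT, without overlap. The log2 fold change was 0.88 ± 0.22 (edgeR adjusted p 0.0346). This call was lost with DESeq2, with an offset that depends on the level of a peak, and without Oshmgb1 replicate 1, Oshmgb1 replicate 2 or WT replicate 2. All 4 calls in the gypsy and pol group (1.43% of its 280 peaks) were thus higher in Oshmgb1, the adjacent pair at LOC_Os12g08040 included. Over all peaks 0.403% were called, and those calls also leaned higher, with 148 higher and 38 lower. The median log2 fold change of the group was 0.05.

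**Figure D3:**
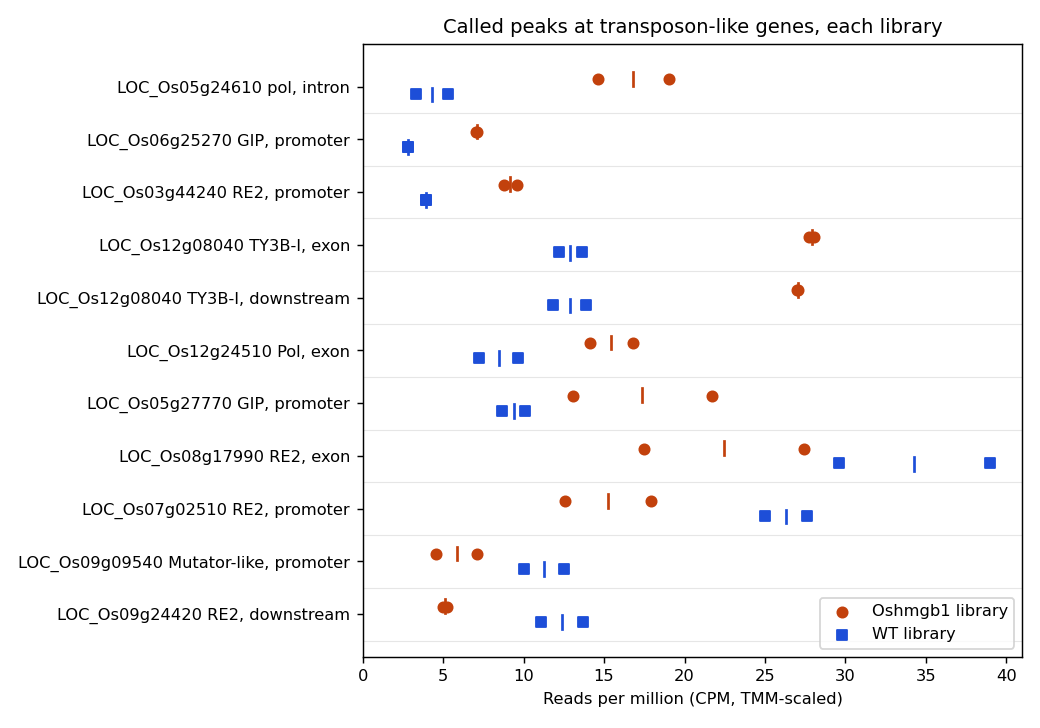
CPM in each library (x axis) for the 11 called peaks (rows, from the largest positive to the largest negative log2 fold change), with Oshmgb1 libraries as red circles above WT libraries as blue squares and a bar at each genotype mean. In no row do the genotypes overlap; libraries of a genotype lie closest at LOC_Os06g25270 and farthest apart at LOC_Os08g17990.

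In the copia group, 3 peaks were more open in Oshmgb1, all in promoters. At LOC_Os06g25270, with the symbol GIP (chromosome 6, 14784627 to 14784930), the peak measured 7.06 and 7.11 CPM in Oshmgb1 and 2.81 and 2.81 CPM in WT. The libraries of each genotype were nearly equal, and the log2 fold change was 1.33 ± 0.27 (edgeR adjusted p 0.00242). At LOC_Os05g27770, also with the symbol GIP (chromosome 5, 16170253 to 16170959), it measured 13.1 and 21.7 CPM in Oshmgb1 and 10.1 and 8.68 CPM in WT. Here Oshmgb1 replicate 1 was only slightly above WT replicate 1, and the log2 fold change was 0.88 ± 0.22 (edgeR adjusted p 0.0337). The first call was kept with every library left out, and the second was lost without Oshmgb1 replicate 2 (log2 fold change 0.48), without WT replicate 2 and with the level-dependent offset.

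The third was LOC_Os03g44240, with the symbol RE2 and described by an integrase core domain. Its promoter peak (chromosome 3, 24863452 to 24863819) measured 8.78 and 9.56 CPM in Oshmgb1 and 3.93 and 3.91 CPM in WT. The log2 fold change was 1.22 ± 0.25 (edgeR adjusted p 0.00375), and the call was lost without Oshmgb1 replicate 2. An exon peak near the start of the gene measured 7.45 and 8.05 CPM in Oshmgb1 and 3.93 and 4.28 CPM in WT, likewise without overlap, with a log2 fold change of 0.91 ± 0.25 (edgeR adjusted p 0.0782). A second exon peak had 0.28 ± 0.23, and there the genotypes overlapped.

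The other 3 copia-type calls were less open in Oshmgb1, all at genes with the symbol RE2. Downstream of LOC_Os09g24420 (chromosome 9, 14519051 to 14519417), the peak measured 4.96 and 5.25 CPM in Oshmgb1 and 11.1 and 13.7 CPM in WT. Both Oshmgb1 libraries were below both WT libraries by more than the spread within either genotype, with a log2 fold change of -1.28 ± 0.24 (edgeR adjusted p 4.41e-04). This was the 4th peak listed with an FDR under 0.05 in the authors' deposited table (0.0372). A neighbouring downstream peak of the same gene had a log2 fold change of 0.06 ± 0.21, with overlapping genotypes.

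In the promoter of LOC_Os07g02510 (chromosome 7, 885586 to 886173) the levels were 17.9 and 12.6 CPM in Oshmgb1 and 24.97 and 27.6 CPM in WT, a log2 fold change of -0.77 ± 0.18 (edgeR adjusted p 0.0158). In exon 5 of 7 of LOC_Os08g17990 (chromosome 8, 11027794 to 11028612) they were 17.5 and 27.4 CPM in Oshmgb1 and 39.0 and 29.6 CPM in WT, a log2 fold change of -0.62 ± 0.16 (edgeR adjusted p 0.0493). The genotypes did not overlap at either peak, but the gap between them at LOC_Os08g17990 was narrower than the spread within either of them. Its call was lost without Oshmgb1 replicate 1 and without WT replicate 1, and also with library totals alone and with the offset. The call at LOC_Os07g02510 was lost without Oshmgb1 replicate 2 and without WT replicate 2. RE1 had 0 calls among 122 peaks, with 16 higher (13.1%) and 4 lower (3.28%) at an unadjusted edgeR p under 0.05, beside 6.94% and 5.22% of all peaks, and by DESeq2 0 calls as well.

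Among the DNA transposons 1 peak was called, at the Mutator-like transposase gene LOC_Os09g09540. The peak, in the promoter (chromosome 9, 5154474 to 5154732), measured 4.58 and 7.11 CPM in Oshmgb1 and 12.5 and 10.02 CPM in WT. The genotypes did not overlap, and the log2 fold change was -0.96 ± 0.24 (edgeR adjusted p 0.0366), a call lost without Oshmgb1 replicate 1 and without WT replicate 1. A second promoter peak of this gene measured 13.9 and 13.2 CPM in Oshmgb1 and 19.6 and 16.6 CPM in WT, again lower but not called (-0.41 ± 0.19, edgeR adjusted p 0.366). Over the 20 Mutator peaks the median log2 fold change was -0.11, with 1 peak higher (5%) and 4 lower (20.0%) at an unadjusted p under 0.05, beside 6.94% and 5.22% of all peaks.

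The 11 peaks at CACTA genes had the highest median log2 fold change of the groups, 0.26, and 0 calls by edgeR or DESeq2. The genotypes did not overlap at 10 of them, with Oshmgb1 above WT at 6 and below it at 4, beside 43.2% of all peaks (21.6% each way). An unadjusted edgeR p under 0.05 was seen at 2 (18.2%), beside 12.2% of all peaks. The 5 hAT peaks had a median of -0.02, the 15 at other retrotransposons 0.03 and the 48 at transposons of unnamed kind 0.06, with 0 calls in each group by edgeR or DESeq2. At an unadjusted edgeR p under 0.05 these groups had 0, 2 (13.3%) and 5 peaks (10.4%).

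**Figure D4:**
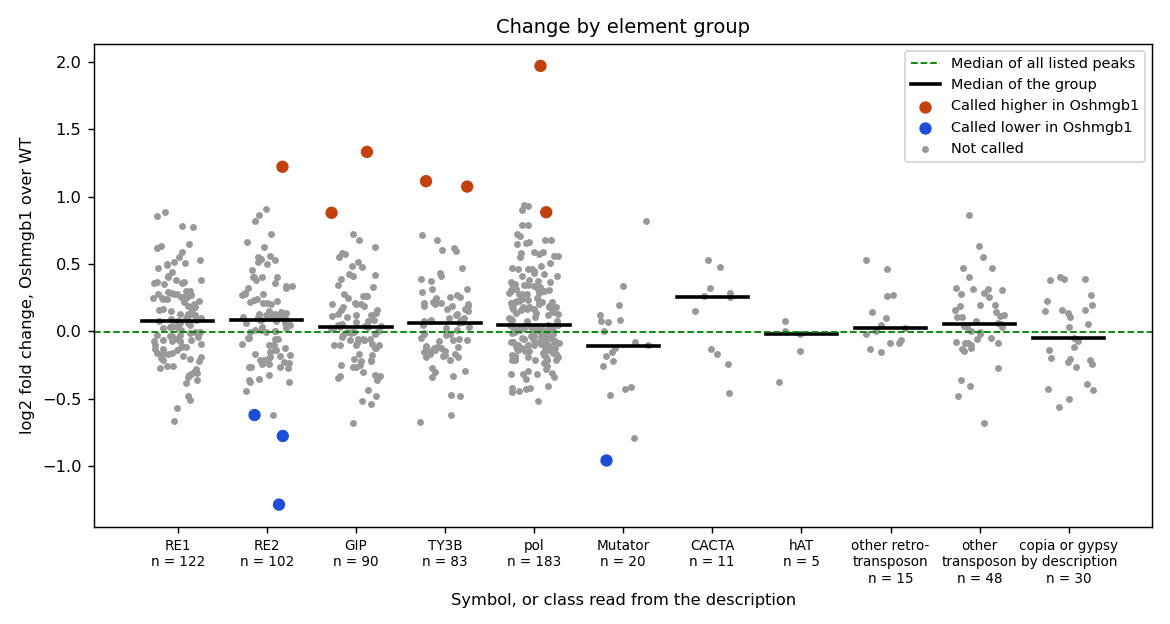
log2 fold change of Oshmgb1 over WT (y axis) for each of the 709 transposon-like peaks, by symbol or, for peaks chosen by the description alone, by class (x axis). Red and blue points are called peaks, black bars group medians and the dashed line the median of all listed peaks. Some called points lie within the spread of uncalled ones. Most group medians lie near the dashed line, with that of CACTA farther off at 0.26.

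Most neighbours of the called peaks were not called. The nearest listed peak on each side of the 11 called peaks lay 287 bp to 61555 bp away, with a median of 7448.5 bp. Of these 22 neighbours, 2 were called, beside 0.403% of all peaks. They were the adjacent pair at LOC_Os12g08040, each being the other's neighbour. The other 20 had log2 fold changes between -0.41 and 0.91, and 2 of them an unadjusted edgeR p under 0.05, beside 12.2% of all peaks. Both of these lay at the gene of their called peak and went the same way as it, at LOC_Os03g44240 (0.91) and LOC_Os09g09540 (-0.41).

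Genes that share a deposited description, which for many elements is the name of a database entry for a protein, mostly had uncalled peaks on both sides of 0. The description of LOC_Os07g02510, OSJNBa0017B10.1, was shared by 17 peaks at 17 genes on 9 chromosomes. Besides the 1 called peak, 10 of them had a positive and 6 a negative log2 fold change, and they spanned -0.62 to 0.89. The description of LOC_Os05g24610, OSJNBa0035M09.1, was shared by 4 uncalled peaks between -0.18 and 0.51. That of LOC_Os09g24420, OSJNBb0058J09.8, had 6 uncalled peaks, 3 positive and 3 negative. The largest such set was the 24 peaks at 11 genes described as H0112G12.6. It had 0 calls by edgeR or DESeq2, beside 0.403% and 0.0976% of all peaks, too few peaks to expect a call at those shares. Of the 24, 4 had an unadjusted edgeR p under 0.05, beside 12.2% of all peaks. The log2 fold changes of the set ran from -0.56 to 0.66. A shared description does not show that copies share their sequence, and the sources used here do not give how reads that match several copies were counted. Counts at near-identical copies, and so the calls at such genes, are uncertain for that reason.

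**Figure D5:**
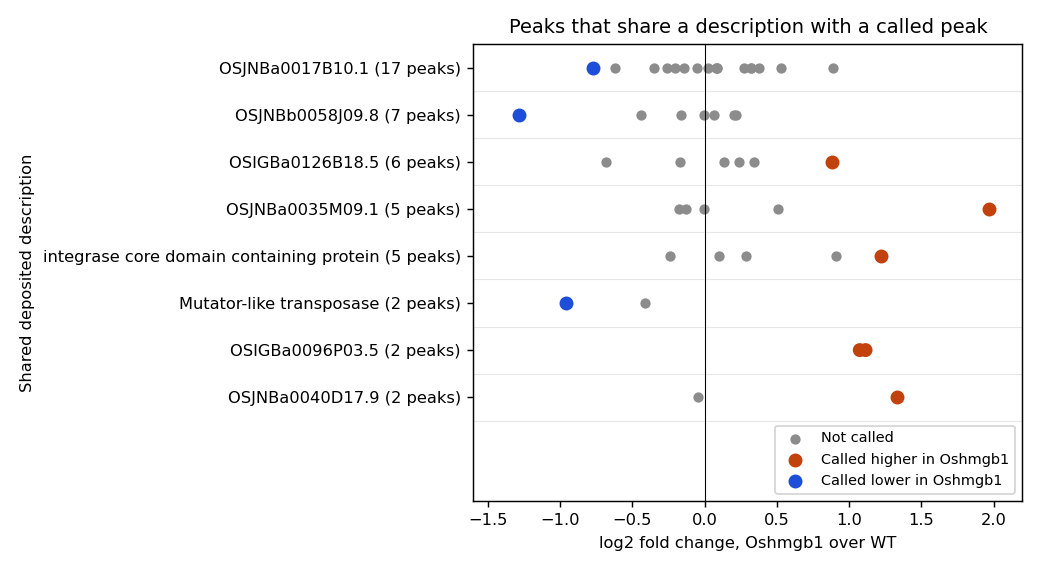
log2 fold change of Oshmgb1 over WT (x axis) for the peaks of every description that is shared by several peaks and holds a called one (rows); red and blue points are called peaks, grey points uncalled ones. In the row of OSJNBa0017B10.1, with 17 peaks, the uncalled points spread to both sides of 0.

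Peaks of the same gene went the same way about as often as at other genes. Of 104 transposon-like genes with 2 peaks, both had the same sign at 55 (52.9%), against 52.4% of the other genes with 2 peaks. Of 37 with 3 or more peaks, 10 (27.0%) had all peaks on the same side of 0, against 24.6% of other genes. The gene with the most peaks, LOC_Os06g28390 (RE1), had 6, of which 1 was positive and 5 negative, between -0.56 and 0.13.

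Of the 10 uncalled peaks with the smallest p, 9 were higher in Oshmgb1 and 1 lower. Peaks with a small p leaned higher over all peaks too. There 148 called peaks were higher and 38 lower, and 3201 were higher and 2405 lower at an unadjusted edgeR p under 0.05. The first, an exon peak of LOC_Os05g16370 (RE1, described as retrofit, a copia element of a wild rice), measured 13.4 and 13.1 CPM in Oshmgb1 and 6.59 and 7.94 CPM in WT. Its log2 fold change was 0.86 ± 0.23 (edgeR adjusted p 0.0554). The next, an exon peak of LOC_Os11g45200 (TY3B-I), measured 22.4 and 19.9 CPM in Oshmgb1 and 14.4 and 11.5 CPM in WT, a log2 fold change of 0.72 ± 0.19 (edgeR adjusted p 0.0586). In both the genotypes did not overlap. The lower one was the promoter peak of LOC_Os11g44270, described as a Pol polyprotein of the copia element TNT 1-94, with 23.4 and 21.5 CPM in Oshmgb1 and 36.9 and 29.6 CPM in WT (-0.56 ± 0.15, edgeR adjusted p 0.0738). The other 7 had log2 fold changes from 0.86 to 0.94. They were at LOC_Os12g33000, LOC_Os03g29940 and LOC_Os05g21120 (pol in any case), LOC_Os05g19540 (RE1), LOC_Os03g44240 and LOC_Os04g28470 (RE2), and LOC_Os06g35150 (a transposase family protein).

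The 5 transposon-like peaks with the highest mean CPM were not called. A promoter peak of LOC_Os09g08870 (TY3B-I, chromosome 9, 4691258 to 4692018) measured 705 and 691 CPM in Oshmgb1 and 809 and 747 CPM in WT, and ranked 41 among all listed peaks. It alone held 5.43% and 5.21% of the reads in transposon-like peaks in Oshmgb1, against 6.28% and 5.80% in WT. Both Oshmgb1 libraries were below both WT libraries, but the log2 fold change of -0.16 ± 0.08 did not pass (edgeR adjusted p 0.405). Other listed peaks of about the same level were negative as well, in bins of log2 fold change centred at -0.125 and -0.075. With the level-dependent offset the log2 fold change at LOC_Os09g08870 was -0.065. The part of level in this difference was not tested. The next were promoter peaks of LOC_Os06g19854, LOC_Os03g10000 and LOC_Os01g63610 (pol) and of LOC_Os11g39270 (RE2), all with log2 fold changes between -0.13 and 0.01. Per length, the peak of LOC_Os09g08870 had the highest level of the 709, at 970 CPM per kb, and the lowest was 14.8. The other 4 had 399, 340, 71.4 and 298 CPM per kb in the order named.

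Among groups with at least 5 peaks, the CACTA peak with the highest mean CPM was in an exon of LOC_Os10g04290, a TNP2-like gene, TNP2 being a CACTA transposase of snapdragon. It measured 36.6 and 36.2 CPM in Oshmgb1 and 40.7 and 39.0 CPM in WT. That of the Mutator genes, in an intron of LOC_Os05g32480, measured 46.6 and 47.0 CPM in Oshmgb1 and 46.0 and 42.5 CPM in WT. That of the hAT genes, in the promoter of LOC_Os03g60800, measured 43.0 and 42.0 CPM in Oshmgb1 and 44.1 and 42.3 CPM in WT. Both Oshmgb1 libraries were below both WT libraries at LOC_Os10g04290 and above both at LOC_Os05g32480, by small margins, and at LOC_Os03g60800 the genotypes overlapped. The promoter peaks of LOC_Os12g21560 (described as a Cinful-1 retrotransposon) and LOC_Os08g08680 (a transposase) had log2 fold changes of -0.09 ± 0.12 and 0.06 ± 0.11. None of these 5 was called.

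The median difference varied with the annotation class. Exon and intron peaks of transposon-like genes had median log2 fold changes of 0.11 and 0.09, while promoter and downstream peaks had 0.03 and 0.04, and the few 3′ UTR and 5′ UTR peaks -0.09 and 0.02. The other peaks had 0.02 in exons, 0.01 in introns, -0.03 in promoters, 0.01 downstream, -0.02 in 3′ UTRs and -0.05 in 5′ UTRs. At an unadjusted edgeR p under 0.05, exon peaks of transposon-like genes were higher in Oshmgb1 at 32 (16.2%) and lower at 7 (3.55%), against 8.52% and 4.81% of other exon peaks. Promoter peaks were higher at 24 (8.76%) and lower at 18 (6.57%), against 5.92% and 5.41% of other promoter peaks. The difference between classes was not tested.

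The level of a peak and its surroundings moved with the difference too. Below the median level of all peaks (14.7 CPM) lay 452 transposon-like peaks, whose median log2 fold change was 0.10, against 0.03 for the other peaks below it. At or above it lay 257, with a median of 0.01, against -0.03 for the other peaks. Called peaks made up 1.55% below and 1.56% above this level among transposon-like peaks, against 0.473% and 0.298% among the other peaks. In 1 Mb windows with at most 113 listed peaks lay 305 transposon-like peaks (43.0%, against 24.8% of the other peaks). Their median was 0.11, with 54 higher (17.7%) and 9 lower (2.95%) at an unadjusted edgeR p under 0.05. Among the other peaks of these windows 9.05% were higher and 4.52% lower. In the remaining windows, the 404 transposon-like peaks had a median of 0.03, with 31 higher (7.67%) and 25 lower (6.19%), against 6.14% and 5.45% of the other peaks there. The other peaks had medians of 0.02 in the peak-poor windows and -0.02 elsewhere. The part of level and surroundings in the difference was not tested.

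Genes tied to transposon silencing in plants, here called silencing genes, were examined alongside. The list mixes genes that act for silencing with DNA demethylases, which remove methylation. Its counts and median thus describe neither kind alone. The list, drawn up from descriptions, covered DNA methyltransferases and demethylases, histone methyltransferases, small RNA factors, chromatin remodellers and subunits of RNA polymerases IV and V, with 177 peaks at 78 genes. Neither edgeR nor DESeq2 called any of them, and 0 had an FDR under 0.05 in the authors' deposited table. At an unadjusted p under 0.05 edgeR gave 21 (11 higher, 10 lower, or 11.9% of the list beside 12.2% of all peaks). DESeq2 gave 9 such peaks and the authors' deposited p-values 12. No share over all peaks was worked out for the DESeq2 and deposited counts, so they show neither excess nor lack. The median log2 fold change was -0.04.

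The 5 silencing-gene peaks with the smallest p went both ways. Downstream of LOC_Os07g25390, with the symbol DRD1, a chromatin remodeller of RNA-directed DNA methylation in Arabidopsis, the peak measured 4.77 and 6.06 CPM in Oshmgb1 and 9.40 and 10.3 CPM in WT (log2 fold change -0.87, edgeR adjusted p 0.0752). In an intron of AGO1D (LOC_Os06g51310), an argonaute protein of the kind that carries small RNAs, it measured 16.2 and 14.6 CPM in Oshmgb1 and 7.01 and 10.998 CPM in WT (0.76, edgeR adjusted p 0.0878). The genotypes did not overlap at either. The other 3 were higher in Oshmgb1 but did not pass, at a DEMETER-like gene of DNA demethylation (LOC_Os06g13070, 0.83), at MORC6 (LOC_Os11g26830, 0.84), in Arabidopsis a silencing factor, and at NRPD2 (LOC_Os08g07480, 0.83), the second subunit of RNA polymerases IV and V.

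The leaf label was checked on 60 peaks at 37 mesophyll genes, whose median level was 54.0 CPM per kb, against 27.3 over 10 peaks at 8 root genes and 25.6 over all peaks. Of the mesophyll peaks, 0 were called by edgeR, while 2 were higher (3.33%) and 9 lower (15.0%) at an unadjusted p under 0.05, beside 6.94% and 5.22% of all peaks, with a median log2 fold change of -0.08. The median level was 27.5 CPM per kb over 14 meristem peaks, 19.9 over 5 vascular and 29.0 over 24 epidermis or guard cell peaks. At promoter peaks alone it was 57.4 for mesophyll and 45.8 for meristem (4 peaks). There it was 30.4 for root, 29.2 for epidermis or guard cell and 21.7 for vascular genes. The meristem, vascular and epidermis or guard cell peaks had median log2 fold changes of -0.01, 0.01 and -0.02. The 10 root peaks had a median of -0.21, with 1 positive, 0 called by edgeR and 0 higher and 1 lower at an unadjusted p under 0.05. In leaf tissue, a different mix of cells and a difference within each cell cannot be told apart, and the part of cell mix in the results above was not tested. Reads in peaks numbered 10400677 and 8516630 in Oshmgb1 and 7228483 and 8183354 in WT. Between replicates, the median difference of a transposon-like peak on the log2 scale was 0.18 in Oshmgb1 and 0.18 in WT, against 0.15 and 0.18 for the other peaks.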

How the data were processed

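ATAC-seq of leaf blades gave 4 libraries, 2 of Oshmgb1 and 2 of WT. Per the submitters' processing notes, reads were handled with Bowtie2 2.4.4, fastp 0.23.0 and bcl2fastq 2.19, and peaks with ChIPseeker 1.16.1 and MACS2 2.1.2, no order being stated. Not given in the sources used here are the genome build, the Tn5 shift, and the handling of duplicates and of reads matching several places. Coordinates are those of the deposited table.

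Tests used the deposited read counts, whole and unscaled, of each merged peak in each library. The RPKM deposited by the authors served only to work out library totals as an alternative scaling. The authors' deposited log2 fold change was copied for called peaks only, and the authors' deposited p-value and FDR gave a second set of calls. Of all numbered peaks, 80.3% are listed; the rest were not analysed here. There were 0 columns of other samples.

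Counts were fitted over all 46114 peaks with edgeR 4.0.16 in R 4.3.3 (TMM scaling, the default filter, which removed 0 peaks, and the quasi-likelihood test with no covariates), with Benjamini-Hochberg adjustment over all peaks. Fold change and F statistic together gave standard errors and 95% intervals. The test shares its estimate of spread across peaks, so a standard error follows a peak's own replicates only in part. It was 0.27 at LOC_Os06g25270, where libraries of a genotype lay closest in CPM among called peaks. At LOC_Os08g17990, where they lay farthest apart in CPM, it was 0.16. Standard errors are on the log2 scale, where this ranking need not hold. Depth differed too, with 20 to 74 reads per library at LOC_Os06g25270 and 183 to 278 at LOC_Os08g17990. DESeq2 1.42.0, other scalings, filters, a replicate block and leaving out each library were alternatives. A lone library is then assumed to vary like the other genotype's. On simulated counts for Oshmgb1 against WT over 46114 peaks, the test found 32% of 50 true 1.5-fold changes and 92% of 50 true 2-fold ones. It found 100% at 3-fold and at 4-fold, with 6 false calls. The simulated spread followed the level of a peak alone, and the changed peaks were picked from all listed peaks. Transposon-like peaks had fewer reads (median 105.5, against 126.75 over all peaks). The shares found may thus be too high, and the false calls too few, for them. No library was a copy of another, since replicates varied beyond counting noise (chi-square over its degrees of freedom 2.25 in Oshmgb1 and 2.50 in WT).

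Members and lists were chosen with earlier results of these data known. Peaks named are all called ones, the 10 uncalled with the smallest p, the 5 with the highest mean CPM, the highest in each group of at least 5 peaks, and the 5 silencing-gene peaks with the smallest p; second peaks of called genes and LOC_Os06g28390 were named after their values were seen. Figures were drawn with matplotlib 3.10.9.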

Additional observations from a re-analysis of the deposited data

How the results depend on the processing

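None of the 11 called peaks changed direction under the alternatives tried, while 5 of the 20 named peaks that were not called, all with log2 fold changes near 0, changed sign. Leaving out 1 library gave log2 fold changes of -0.028 to 0.052 at LOC_Os03g10000, -0.050 to 0.0071 at LOC_Os03g60800, -0.233 to 0.045 at LOC_Os06g19854, -0.016 to 0.142 at LOC_Os08g08680 and -0.137 to 0.023 at LOC_Os11g39270. The level-dependent offset gave 0.022 at LOC_Os03g60800 and 0.011 at LOC_Os11g39270, and the library totals behind the RPKM gave -0.033 at LOC_Os03g10000. The cause was not tested. DESeq2 called 3 of the transposon-like peaks and 45 of all peaks. Leaving out 1 library gave 7 to 18 calls among transposon-like peaks, 75 to 530 over all peaks and 0 to 4 among the silencing genes. The fewest transposon-like calls came without Oshmgb1 replicate 2 (4 higher, 3 lower) and the most without WT replicate 2 (13 higher, 5 lower). Choosing members by words in the description alone left 1 call among 148 peaks, and promoter peaks alone gave 5 among 274. These calls were 0.676% and 1.82% of their sets, beside 1.55% of the 709 peaks and 0.403% of all peaks. Of the 580 peaks chosen by symbol, 10 (1.72%) were called. Library totals behind the RPKM gave a median log2 fold change of 0.0075 for the transposon-like peaks, beside -0.05 for all peaks. Reads in peaks made up 26.2% and 25.9% of these totals in Oshmgb1, and 27.5% and 27.0% in WT. Such a scaling moves all peaks of a library by the same factor. The RPKM totals gave 1 call, lower, among the silencing genes, and its cause was not tested. The same totals gave 7 higher and 5 lower transposon-like peaks, and library totals in peaks alone 9 and 3. Over all peaks these scalings gave 133 higher and 88 lower, and 173 and 30.

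The call at LOC_Os06g25270 was not tested under the filter of 50 mean reads, which removed it. The replicate number as a block gave 11 transposon-like calls (7 higher, 4 lower) and 179 over all peaks. Same-numbered libraries did not deviate together across peaks (correlation -0.04). The labels do not say whether the numbers pair libraries, and a correlation near 0 cannot exclude that they do. Leaving out the 10 peaks whose descriptions name another kind of protein, an alternative chosen after seeing the data, gave 11 calls among 699. Of simulated 1.5-fold changes, 32% were found, so such differences can be missed with these libraries.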
